A study of Homo sapiens with 4 samples.

Results

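The long arm of chromosome 4 beyond 54.8 Mb (hg19) held 757 of the 197823 regions in the deposited peak list, or 0.383%. They were chosen by position: a line of the deposited peak list was taken when its summit, the point of highest signal, lay on chromosome 4 at or beyond 54800000, counted from 0, more than 2 Mb past the stretch without regions that spans the centromere. A region is a distinct start and end in that list, and the 757 regions carried 1119 summits. The arm was picked because earlier results of these data had shown it to be sparse, so its low number of regions is a description and was not tested.

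The list came from ATAC-seq, which cuts and tags accessible DNA with the Tn5 transposase, in T47D-MTVL cells, which come from the luminal breast cancer line T47D and carry a single stable copy of an MMTV-driven luciferase reporter. The 2 knock-down samples expressed an shRNA against multiple variants of linker histone H1, the 2 control samples a random shRNA, and both groups shared the reporter line and the medium. The series has 1 peak list for all 4 samples, without values for single samples, so the spread between replicates is unknown for every number given here. Its track line names 225sh and RDsh. That 225sh means the H1 knock-down, with the random shRNA as its reference, is an assumption from these names. The markers of the cell line were not checked, since the list gives positions and no genes.

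Linker histone H1 binds the nucleosome where DNA enters and leaves it and helps to fold chromatin into a compact form. The long arm of chromosome 4 is known as gene-poor and AT-rich over long stretches, with compact, late-replicating segments between islands of genes. It ends in the D4Z4 macrosatellite array, which is normally held in a repressed state and has a near-identical copy at the long-arm end of chromosome 10.

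Each region has the fold enrichment that the authors' peak caller gave to its highest summit. These folds correspond to whole numbers of reads over 1 genome-wide background of 2.01 reads (the largest deviation from a whole number on the arm was 8.35e-05 reads). The fold is therefore a multiple of a genome-wide level and not of the control cells at the same place. The weakest region the list holds has 10 reads. The list's name also holds the word Differential, and whether summits were removed by comparison with the control is not given in the sources used here. A window without a region is therefore one with no listed summit and not one shown to be closed. No hg19 genome was used here, and no sequence of a region is printed.

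The first whole window of 1 Mb began at 55 Mb and the last, which is cut short, held the final region, from 191042922 to 191044253. Of these 137 windows, 16 held no region (11.7%, 95% Wilson interval 7.32 to 18.1%, which like all intervals here covers counting error only; amplified reads carry no molecular identifiers, so they need not be separate molecules). A further 16 windows held 1 region, 23 held 2, 35 held 3 to 5, 24 held 6 to 9 and 22 held 10 to 18. The 1 remaining window, from 190 to 191 Mb, held 96. The median window had 3 regions, with quartiles of 2 and 8. The 23 windows with 10 regions or more held 376 of the 757 regions (49.7%), and 55 windows (40.1%) had fewer than 3. In total the regions covered 266 kb, or 0.195% of the 136 Mb between the boundary and the last summit.

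**Figure D1:**
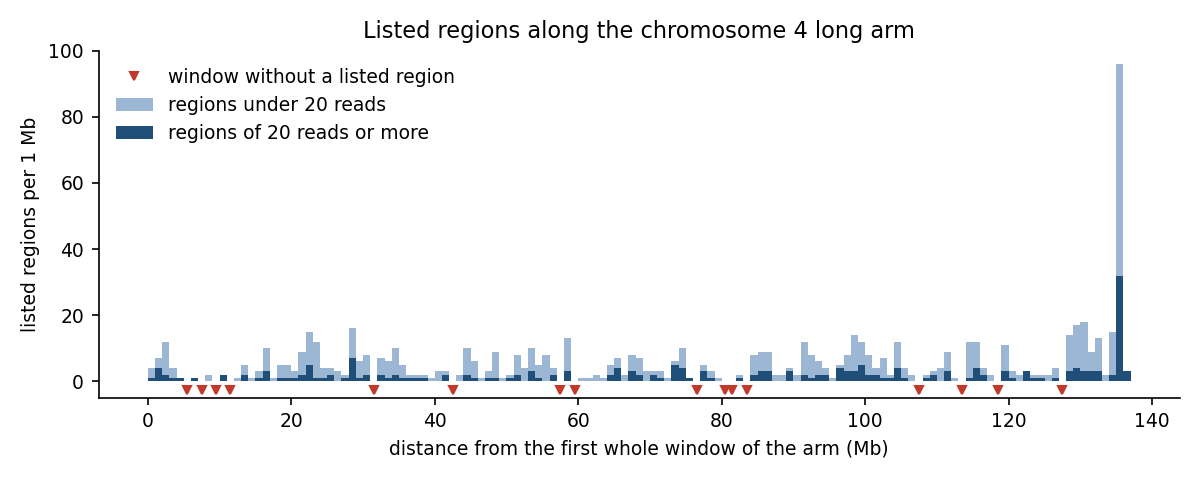
Listed regions per 1 Mb window against distance in Mb from the first whole window; dark bars are regions of 20 reads or more, light bars those under 20, and triangles mark the 16 windows without a region. One bar near the end reaches 96, whereas no other window passes 18.

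The fullest window, from 190 to 191 Mb, held 12.7% of the arm's regions (10.5 to 15.2%), 5.33 times the number in the next. That next window, from 185 to 186 Mb, held 18 regions in 25 summits with a highest pileup of 34 reads. The windows from 184 to 185 Mb and from 83 to 84 Mb held 17 and 16. From 77 to 78 Mb and from 189 to 190 Mb there were 15 regions each, and from 153 to 154 Mb and from 183 to 184 Mb 14 each. The windows from 113 to 114 Mb and from 187 to 188 Mb completed the fullest 10 with 13 each. Thus 6 of the fullest 10 windows lay beyond 183 Mb. Together the 10 held 231 regions (30.6% of the regions in the 137 windows, interval 27.4 to 34.0%). The 2 regions of the arm before 55 Mb lay in none of these windows. With the fullest window left out, the fullest 10 of the rest held 22.3% of what remained.

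In steps of 10 Mb the arm had between 31 and 74 regions up to 185 Mb. The highest of these steps were 75 to 85 Mb with 74 regions and 145 to 155 Mb with 72, and neither held an empty window. The lowest was 55 to 65 Mb with 31 regions and 3 empty windows. The last step, from 185 to 191 Mb, is shorter and held 153 regions, or 25.5 per Mb. Its median fold of 5.32 was the same as that of the steps from 75 to 85 Mb and from 145 to 155 Mb. The step from 125 to 135 Mb had few regions, 33, but the highest median fold, 7.31, and 17 of its regions (51.5%) had 20 reads or more.

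The 16 empty windows formed 15 separate runs along the arm. The 2 stretches of 9 windows with the most empty ones, picked for that, held 8 of the 16. Of the 9 windows from 59 to 68 Mb 4 were empty and the others held 7 regions in all, and of the 9 windows from 130 to 139 Mb 4 were empty and the others held 12. The windows from 135 to 137 Mb were the only adjoining empty pair. The other 8 empty windows were single ones, starting at 86, 97, 112, 114, 162, 168, 173 and 182 Mb. The longest stretch without a region ran from 134831630 to 137733719 (2.90 Mb), followed by 130014925 to 132650488 (2.64 Mb) and 59265476 to 61596784 (2.33 Mb). The next longest ran from 113627017 to 115879690 (2.25 Mb) and from 65474184 to 67616184 (2.14 Mb). In all, 25 stretches were longer than 1 Mb and added up to 39.7 Mb, 29.1% of the arm. The regions at their borders were not only weak ones: the one just before the 2.14 Mb stretch had 251 reads.

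At the boundary itself, the nearest regions outside were at 54458967 to 54459133 with 19 reads and at 54457673 to 54457821 with 10 reads. The nearest inside, which is also the first region, was at 54957378 to 54957529 with 10 reads, followed by one at 54966823 to 54966972, also with 10 reads.

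The end of the arm was set apart by number and, in part and depending on where it was cut, by make-up. The last 2 windows held 99 regions in 171 summits. The median distance between neighbouring regions, measured from highest summit to highest summit, was 2615 bp there and 81864 bp among the other 658. The median fold was 5.32 in both. Regions of 50 reads or more made up 9.09% of the 99 (9 regions, interval 4.86 to 16.4%) and 2.43% of the 658 (16 regions, 1.502 to 3.91%). Regions of 1 kb or more made up 13.1% (7.84 to 21.2%) and 5.47% (3.98 to 7.48%), whereas regions with 1 summit made up 67.7% (58.0 to 76.1%) and 77.4% (74.0 to 80.4%). The shares at 20 reads or more were 35.4% (26.6 to 45.2%) and 28.1% (24.8 to 31.7%). The intervals overlapped for the shares with 1 summit and at 20 reads or more, and did not for those at 50 reads and at 1 kb. That separation depended on the cut. For the fullest window alone, the interval at 50 reads (5.01 to 16.9%) stayed apart from that of the 658. Its interval at 1 kb (7.30 to 20.6%) overlapped. For the terminal 5 Mb against the arm before it, both overlapped. They were 3.47 to 11.9% against 1.60 to 4.16% at 50 reads, and 6.70 to 17.2% against 3.96 to 7.58% at 1 kb. These intervals are given in place of a test, since regions of 1 list share their libraries and are not replicates.

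Within the fullest window the regions were bunched again. The 100 kb from 190500001 to 190600000 held 36 regions and the next 100 kb held 19, so that 55 of the 96 (57.3%) lay in that pair of windows. A second, smaller group of 15 regions lay from 190900001 to 191000000, after windows with 6 and 4. Between 188 and 189 Mb, by contrast, the whole window had 2 regions. When regions within 1 kb of each other were merged, the 96 became 66 and the arm's 757 became 618.

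**Figure D2:**
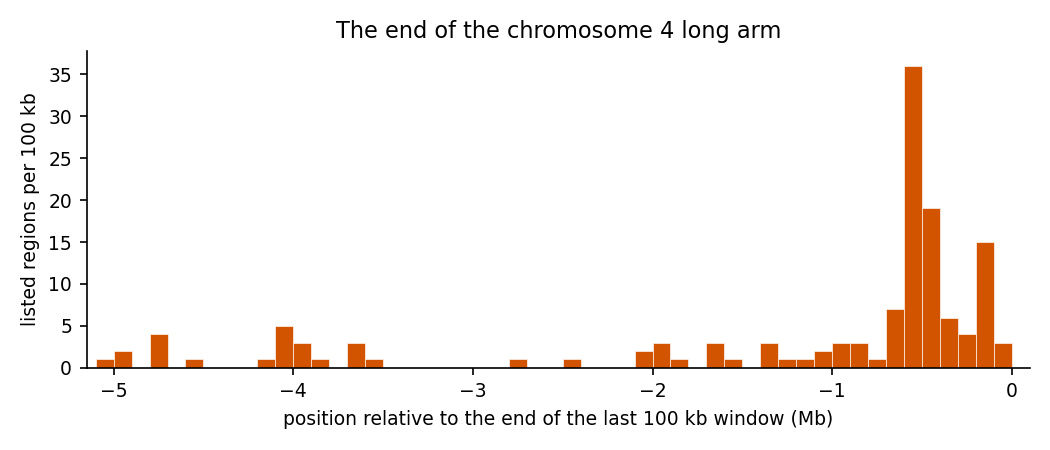
Listed regions per 100 kb over the last windows of the arm, by position in Mb relative to the end of the last window. The highest bar has 36 regions and its right neighbour 19; a separate bar of 15 lies close to the end.

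The strongest region of this end ran from 190943667 to 190943977 with 330 reads (fold 110.1). Its neighbour, from 190941010 to 190942817, had 95 reads and 10 summits, the most of any region on the arm. The D4Z4 array is known to lie close to the end of the arm, but its position was not read from an annotation here. Reads from near-identical copies cannot be assigned with certainty, and how the aligner placed them is not given in the sources used here.

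Other long arms put this end in scale. Counted back from the last listed summit, the last 1 Mb of the chromosome 4 long arm held 98 regions, which ranked 21 among the 23 long arms of chromosomes 1 to 22 and X. Its last 5 Mb held 138, the lowest of the 23. The last 1 Mb held 71.0% of the regions of the last 5 Mb, the highest share of the 23, followed by chromosome 18 with 61.4% and chromosome 10 with 55.4%. On chromosome 10 the last 1 Mb had 124 regions and the last 500 kb 49, against 63 in the last 500 kb of chromosome 4. These are descriptions of 1 list, with no test.

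The arm's regions were few, but by pileup they were not weaker than those elsewhere in the list. The median region had 15 reads (fold 5.32, quartiles 4.32 and 7.31), and 90 regions (11.9%) stood at the minimum of 10 reads. Regions of 20 reads or more numbered 220 (29.1%, interval 25.9 to 32.4%). The share was 21.9% over the whole list (21.7 to 22.1%) and 26.4% on the short arm of the same chromosome (24.9 to 27.9%), where regions were 68.3 per Mb against 5.56 on the long arm. In 3 other sparse parts of the genome, each taken over 2 Mb from its centromere gap, the share was lower. It was 20.8% among 1077 regions of the chromosome 6 long arm (18.5 to 23.3%), 18.75% among 544 of the chromosome 9 short arm (15.7 to 22.2%) and 15.5% among 1137 of chromosome 18 (13.5 to 17.7%). The interval of the chromosome 4 long arm overlapped that of its short arm and none of the other 4. Without the fullest window the share on the long arm was 28.4%, and without the 13 regions of 100 reads or more 27.8%.

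Regions of 1 kb or more were also a larger share on both arms of chromosome 4 than in the other 3 sparse parts, but the short arm came first. They made up 6.47% of the long arm's regions (49 regions, interval 4.93 to 8.45%), 9.15% on the short arm, 3.25% on the chromosome 6 long arm (2.35 to 4.49%), 2.55% on chromosome 18 (1.78 to 3.64%) and 1.84% on the chromosome 9 short arm (1.002 to 3.35%). The whole list had 6.07%, within the interval of the long arm. The median width was 204 bp (interval 191 to 220 bp), against 208 bp in the whole list. Regions with 1 summit numbered 576 (76.1%, 72.9 to 79.0%), between the 66.0% of the short arm and the 80.04%, 82.4% and 83.9% of the chromosome 6 long arm, the chromosome 9 short arm and chromosome 18. The whole list had 71.8% (71.6 to 72.0%), below the interval of the long arm.

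**Figure D3:**
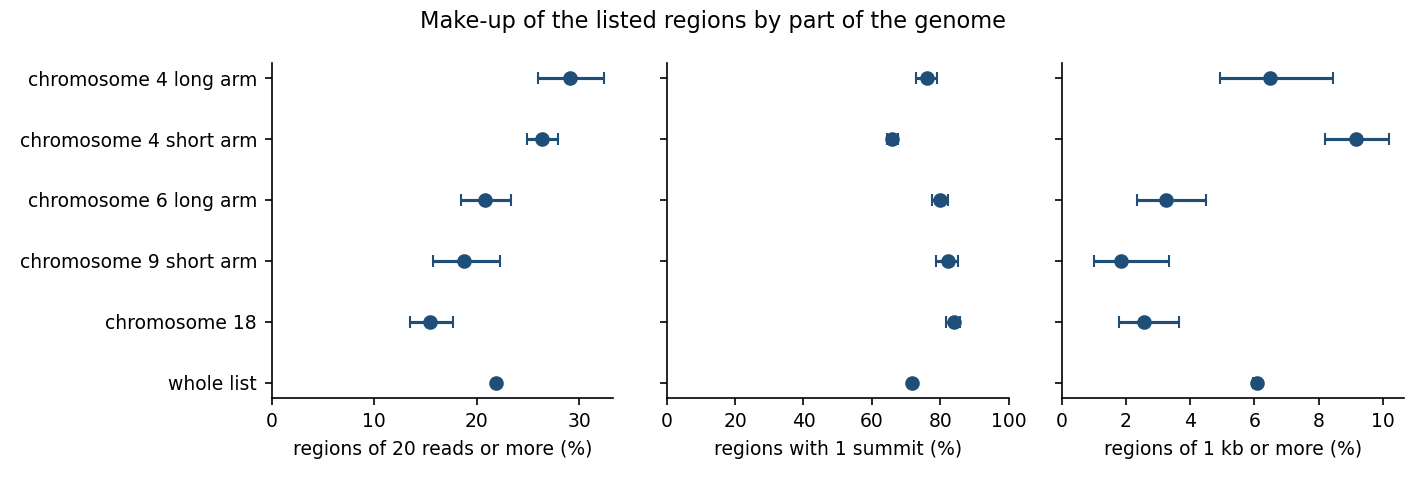
Percent of regions of 20 reads or more (left), with 1 summit (middle) and of 1 kb or more (right) in 5 parts of the genome and the whole list; points are shares and bars 95% Wilson intervals. On the left the chromosome 4 long arm lies at 29.1%, and chromosome 18 is lowest at 15.5%.

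Regions also stood farther apart than in those parts. The median distance between neighbours was 61037.5 bp on the long arm, 14886 bp on the chromosome 6 long arm, 7254 bp on the chromosome 9 short arm, 5235 bp on chromosome 18 and 1111 bp on the chromosome 4 short arm. Spacing follows from the sparseness for which the arm was chosen. On the long arm 321 regions (42.4%) had another within 5 kb, the lowest share of these parts. The share was 55.4% on the chromosome 6 long arm, 64.2% on the chromosome 9 short arm and 67.1% on chromosome 18. On the chromosome 4 short arm it was 93.5%. Without the last 2 windows the long arm had 36.8%. A further 146 of its regions (19.3%) had none within 100 kb. Strength differed little with spacing: the median fold was 5.32 among the 321, among the 146 and in the 290 regions between them. At 20 reads or more were 25.9% of those with a close neighbour (21.4 to 30.9%), 32.1% of those in between (27.0 to 37.6%) and 30.1% of the isolated ones (23.3 to 38.0%), with overlapping intervals.

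The strongest regions were of mixed shape. Up to 99 reads, regions of higher pileup were wider, from a median of 166 bp in the 537 regions under 20 reads to 443 bp in the 195 of 20 to 49 reads and 999 bp in the 12 of 50 to 99 reads. Of those 12, 8 lay in the last 2 windows. The 13 regions of 100 reads or more ran from 98 to 2529 bp, with a median of 310 bp, below the classes of 20 to 99 reads but above the 204 bp of the whole arm. Of these 13, 9 had 1 summit (69.2%), against 76.1% on the whole arm, 38.5% at 20 to 49 reads and 3 of 12 at 50 to 99 reads. They lay in 13 different windows, only 1 of them in the last 2. Their highest summits held 41.1% of the reads summed over the highest summits of all 757 regions, although they were 1.72% of the regions.

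The strongest was a single narrow summit from 56194324 to 56194458 (135 bp) with 2749 reads and a fold of 914. The other 6 regions of its 1 Mb window had at most 26 reads. The next, from 78929678 to 78929866 (189 bp), had 2629 reads and a fold of 874, in a window whose 11 other regions had at most 18 reads. The third, from 163342524 to 163342693 (170 bp), had 839 reads, with its nearest neighbour 257458 bp away. These 3 had 1 summit each and stood far above anything near them. Whether these or the other strong regions lie in sequence with near-identical copies elsewhere was not checked, since no annotation of repeats was read.

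The fourth was of another shape. It ran from 68264280 to 68266773 (2494 bp), with 9 summits and 713 reads at the highest. The fifth and the sixth were the narrow region from 129002784 to 129002931 with 475 reads and the 330-read region near the end of the arm. Then came 93623119 to 93623513 with 310 reads, 70296657 to 70296754 with 280, 65473874 to 65474183 with 251 and 156385030 to 156385769 with 246. The region of 280 reads was 98 bp wide, close to the narrowest on the arm (96 bp). The windows of the regions with 310 and 251 reads held only 1 other region each, of 10 and 30 reads.

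**Figure D4:**
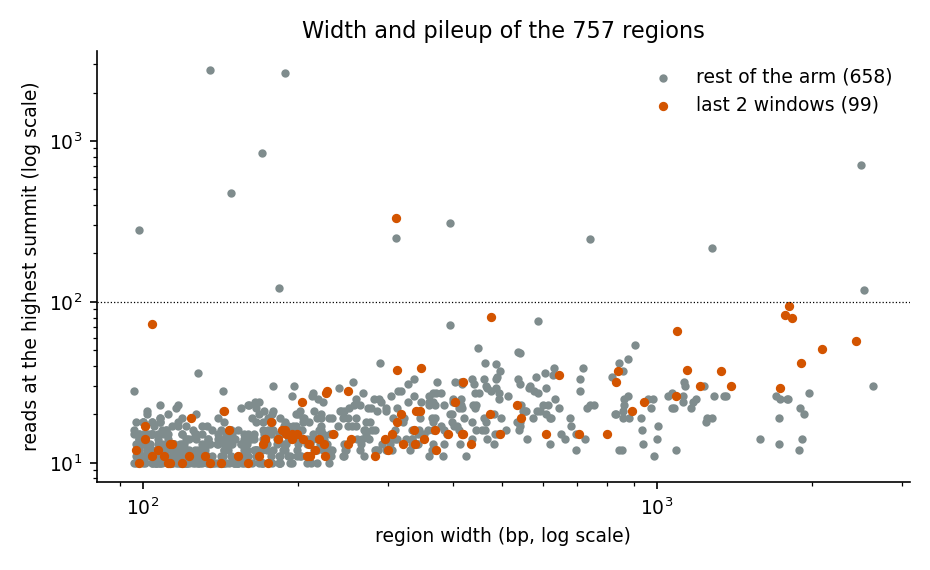
Reads at the highest summit against region width for the 757 regions, both on log scales; orange points are the 99 regions of the last 2 windows and grey points the other 658. Most points rise gently from the lower left, and 13 points lie above the dotted line at 100 reads, 9 of them with 1 summit.

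The widest regions were not the strongest. The widest ran from 159902418 to 159905045 (2628 bp), with 1 summit of 30 reads. The second, from 171279075 to 171281603 (2529 bp), had 119 reads, and the region of 713 reads described above was the third. The fourth and the fifth lay in the fullest window, from 190154166 to 190156599 (2434 bp, 57 reads) and from 190228621 to 190230712 (2092 bp, 51 reads). Among regions with many summits, that from 174255039 to 174256744 had 8 summits and 26 reads, and that from 184425349 to 184426698 also had 8 and 26.

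To relate the windows to genes, 47 well-known genes of the arm were placed in the 1 Mb windows that hold them on hg19. These positions are background knowledge and were not measured, so the counts below belong to a window and not to the gene. The genes occupied 38 windows with a median of 6.5 regions, against 3 over all 137 windows, and 2 of the 38 were empty. Windows with known genes were chosen by gene and are not a random sample of the arm. Several genes share a window and thus its count.

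Genes linked to the interferon response, which the cell uses against viral nucleic acid, lay in windows of 9 to 18 regions. Their median was 10.5 regions per window, against 6 over all 47 genes and 3 over all windows. A count of 9 or more was reached by 29 of the 137 windows (21.2%). That level is the lowest count of this list itself, so that all of its genes reach it was fixed by the choice. The window of HERC5, the ligase that attaches the ubiquitin-like ISG15, and of its relative HERC6 (89 to 90 Mb) held 10 regions, of which 2 had 20 reads or more. The window of DDX60, a helicase of antiviral signalling (169 to 170 Mb), held 12 regions and that of CXCL10, an interferon-induced chemokine (76 to 77 Mb), held 9. IRF2, a regulator of interferon genes, lies in the window with 18 regions (185 to 186 Mb). TLR3, a sensor of double-stranded RNA, lies across the border of the windows from 186 to 188 Mb, which held 22 regions together. HERC5 and HERC6 share a window, and those of IRF2 and TLR3 adjoin within the fuller distal part of the arm, so the 6 genes are not independent. The windows of HERC5 and HERC6, DDX60, CXCL10 and IRF2 each held at most 3 regions of 20 reads or more. That of CXCL10 also held one of the 13 regions of 100 reads or more on the arm, from 76807184 to 76807367 with 122 reads.

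Long genes, most of them of neurons, lay in windows of 0 to 14 regions. LPHN3, an adhesion receptor of synapses now named ADGRL3, and EPHA5, an ephrin receptor, lay in empty windows (62 to 63 Mb and 66 to 67 Mb). CCSER1, a very long gene not known as one of neurons, spanned 2 windows with 4 regions in all. The windows of GRIA2, an AMPA receptor subunit, and UNC5C, a netrin receptor, held 2 and 3 regions. TENM3, a teneurin that guides neuronal wiring, had 14 regions in its window (183 to 184 Mb), and only IRF2 among the 47 genes had more per window. Over these 6 long genes, CCSER1 included, the median was 2 regions per window, the lowest of the gene lists, against 6 over all 47 genes. Over all windows the median was 3 with quartiles of 2 and 8, so the median of this list stood at the lower quartile of the arm.

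Tumour suppressors differed among themselves. The window of FBXW7, which marks cyclin E and MYC for degradation, held 14 regions and that of FAT1, an atypical cadherin, held 13, whereas the 2 windows of INPP4B, a phosphatase of PI3K signalling, held 4 together and none of 20 reads or more. Of the developmental regulators, SMAD1, which carries BMP signals, had 12 regions in its window and HAND2, a heart and limb factor, had 11. LEF1, a nuclear partner of Wnt signalling, spanned 2 windows with 15. FGF2, a fibroblast growth factor, and HHIP, an inhibitor of hedgehog signals, had 7 and 2. The window of HAND2 is also that of HMGB2, a chromatin protein of dividing cells.

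Among the other chromatin genes, TET2, which oxidises methylated cytosine, had 8 regions in its window. H2AFZ, the gene of the histone variant H2A.Z, had 6, in the window it shares with the alcohol dehydrogenase ADH1B, and the remodeller SMARCAD1 had 3. The cell cycle genes ranged from 12 regions for the cyclin CCNG2 and 8 for the cyclin CCNA2 to 7 for the checkpoint gene MAD2L1 and 1 for the kinetochore motor CENPE. The window of NFKB1, a central factor of inflammatory signalling, had 9 regions and that of VEGFC, a growth factor of lymph vessels, had 3, each of the 3 with 20 reads or more.

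The genes of the remaining lists lay in windows of 3 to 8 regions. The fibrinogen genes FGA, FGB and FGG of the liver shared a window with 8 regions, and ALB and AFP, the main serum proteins of the adult and the fetal liver, shared one with 5 that also holds the chemokine CXCL8. The bone matrix genes SPP1, IBSP and DMP1 shared a window with 6 regions. The window of the receptor tyrosine kinases PDGFRA, KIT and KDR (55 to 56 Mb) had 4 regions, at 10, 11, 22 and 14 reads in order along the arm, so that 1 of them reached 20 reads. In the EGF family, AREG and EREG shared a window with 3 regions and EGF had 8 in its own. NR3C2, the mineralocorticoid receptor, had 4.

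**Figure D5:**
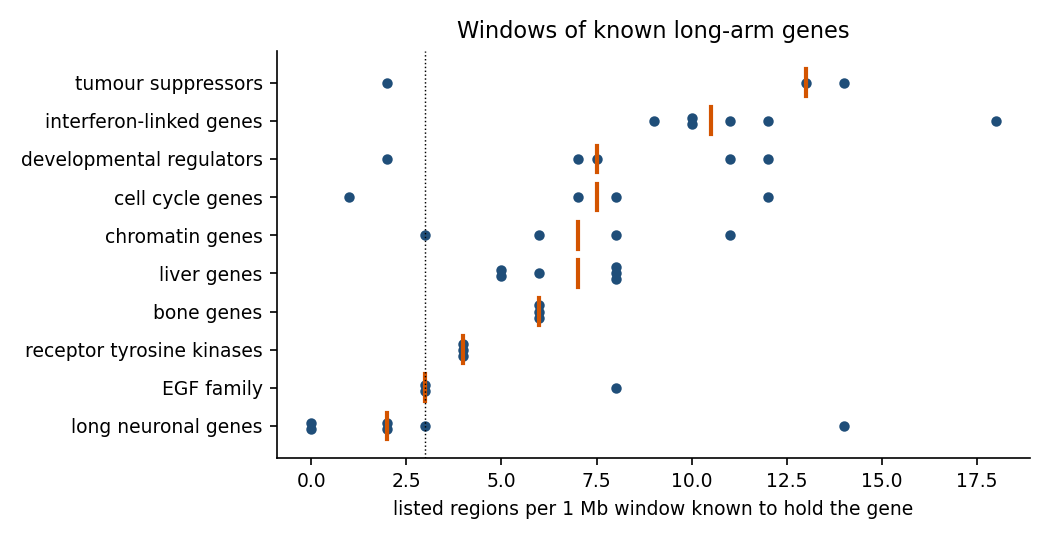
Listed regions per 1 Mb window known to hold each gene, for gene groups of at least 3 genes; points are genes (genes that share a window share its value), orange bars are group medians and the dotted line is the median of all windows, 3. The interferon-linked genes lie at 9 or more, and 2 long neuronal genes lie at 0.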

How the data were processed

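ATAC-seq libraries of 2 knock-down and 2 control samples were sequenced; the labels number them 1 and 2 and do not say whether these are separate cultures. The submitters' processing notes name Bowtie 1.1.2, MACS2 and the build hg19. Not given in the sources used here: options of the peak caller, handling of duplicate reads, any pooling of samples. A deposited list of 371521 lines gives a fold ratio at each summit, −log10 p-value and q-value columns, and a score. The fold values deposited by the authors were turned into reads as fold = (reads + 1) / (background + 1). Over 156 distinct pairs of fold and p (the most extreme p-values left out) the Poisson tail matched the deposited −log10 p within 0.000146. The depth per sample is unknown. The reads, windows and merging steps were tested on simulated data.

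Each region was put in the window of its highest summit. Positions are counted from 1. Named items are the fullest 10 windows, the 10 strongest and 5 widest regions, the 5 longest stretches and the boundary regions. The regions with the most summits, the 10 Mb steps, the other stretches of windows named and the 100 kb windows were chosen after their values were seen. Members and lists were chosen with earlier results of these data known. Genes were placed by background knowledge, and some of those listed at the start are not reported here; all 47 were on chromosome 4 of the GRCh38.p14 gene table in the same order, and only that order was used. Alternatives covered filters, merging, windows, the boundary and the arm's end. No differential test was possible. Shares have 95% Wilson intervals, medians binomial ones. Python 3.11.15, numpy 2.4.6, scipy 1.17.1, pandas 2.3.3 and matplotlib 3.10.9 were used.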

Additional observations from a re-analysis of the deposited data

How the results depend on the processing

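Of 50 alternative values, 29 stayed within 1.5 times the count of regions or within the 95% interval of the share or median, and 21 did not. Filters move most values by construction. The 757 regions became 220 at 20 reads or more and 408 in the 50% of summits with the highest fold. Windows without a region (11.7%) were 18.2% at a −log10 q of 5 or more, 24.1% in the 50% with the highest fold, 34.3% at 20 reads or more, 26.4% in windows of 500 kb and 0% (none) in windows of 2 Mb. The share of the fullest 10 windows (30.6%) was 24.5% in windows of 500 kb, 23.2% without the terminal 5 Mb and 22.3% without the fullest window. The median fold (5.32) was 5.65 with each summit counted and with regions within 1 kb merged, and 6.32 at the stricter q. Folds move in steps of 1 read, and 5.32 and 5.65 stand for 15 and 16 reads. Both ends of the main interval were 5.32, so a step of 1 read fell outside it. Regions with 1 summit (76.1%) made up 63.8% after merging, 66.4% at the stricter q and 39.5% at 20 reads or more. The median width (204 bp) was 267.5 bp after merging, 274 bp at the stricter q and 443.5 bp at 20 reads or more. The share at 20 reads or more (29.1%) was 33.7% after merging and 41.3% at the stricter q. Shifts other than those from the filters and window sizes were not traced to a cause (the cause was not tested). Chosen after the data were seen were the share of the fullest 10 windows without the fullest one, the values without regions of 100 reads or more, and both window shares with the boundary moved to 5 Mb past the gap. No paired analysis was possible because single samples have no values in the list, which also means that no replicate could be omitted. The minimum of 10 reads limits every count of empty windows.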
